A study of Mus musculus with 9 samples.

Results

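The genes described here code for the enzymes of glycolysis, the carriers that bring glucose into the cell and let lactate out, and targets and regulators of the transcription factor HIF1. They were chosen by symbol, from a list of names with no threshold on a measured value, and are Slc2a1, Slc2a3, Slc16a1, Slc16a3, Hk1, Hk2, Gpi1, Pfkl, Pfkm, Pfkp, Aldoa, Aldoc, Tpi1, Pfkfb3, Pfkfb4, Gapdh, Pgk1, Pgam1, Eno1, Pkm, Ldha, Ldhb, Pdk1, Pgm1, Pgm2, Hif1a, Egln1, Egln3, Bnip3, Vegfa, P4ha1 and Ankrd37. The list was made with earlier results of these data known. All 32 were found among the 16876 genes of the deposited table, and all 32 were among the 12212 genes that passed the filter on low counts. Natural killer (NK) cells were grown from the femoral marrow of C57BL/6 mice, first over 4 days in a mix of IL-15 at 50 ng/mL, SCF at 30 ng/mL, Flt3L at 10 ng/mL and IL-7 at 1 ng/mL. A further week followed in IL-2 at 20 ng/mL with IL-15 again at 50 ng/mL, so every group had been given these cytokines. Ctrl cells (n = 3) were left untreated. TGFb cells (n = 3) were exposed to 5 ng/mL TGF-β1 over 3 h. SIS3_TGFb cells (n = 3) were first kept for 3 h in 10 µM SIS3, an inhibitor of Smad3, and then had the same dose and time of TGF-β1. The titles of the third group give SIS3 only, and its treatment text adds TGF-β1. There was no group with SIS3 alone, so an effect of SIS3 itself and an effect on the TGF-β1 response cannot be told apart. Whether Ctrl and TGFb cells had the solvent of SIS3 is not stated. The labels do not name separate mice or cultures as replicates, so p-values measure the spread between libraries, which may be technical.

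Glycolysis splits glucose into pyruvate and yields ATP without oxygen, and NK cells grown in IL-2 and IL-15 use it heavily when they proliferate and make effector proteins. HIF1 is a pair of HIF1α and ARNT that raises transcription of most glycolytic enzymes by binding the cores ACGTG or GCGTG near their starts. Its activity is set largely by the stability of HIF1α protein, which EGLN prolyl hydroxylases mark for destruction when oxygen is present. RNA alone was measured here, so neither HIF1α protein nor glycolytic flux was observed.

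Library totals ran from 15714973 to 16718673 expected counts. Levels are given as CPM (counts scaled to library size, with TMM factors), in the order replicate 1, 2 and 3. Pmepa1, a direct target of TGF-β signalling, stood at 0.426 to 0.801 CPM in Ctrl, at 133 to 143 CPM in TGFb and at 115 to 127 CPM in SIS3_TGFb. The summed level of 12 NK cell markers was 20470 to 21570 CPM in Ctrl, 15650 to 17050 CPM in TGFb and 17000 to 17240 CPM in SIS3_TGFb. Gzmb held 39.3% of that sum. By the edgeR test described below, 9 of the 12 fell and 0 rose in TGFb against Ctrl, beside 16.4% and 17.9% of all genes tested. Their changes were unequal. Ncr1 stood at 147 to 156 CPM in Ctrl and 38.3 to 40.5 CPM in TGFb. Nkg7 stood at 467 to 482 and 452 to 475 CPM, and Tbx21 at 20.1 to 22.1 and 22.0 to 24.0 CPM, in these groups. The 10 macrophage and monocyte markers summed to 929.8, 1119 and 1249 CPM in Ctrl, to 859, 1046 and 668 CPM in TGFb and to 815, 752 and 1271 CPM in SIS3_TGFb. The 9 dendritic cell markers summed to 458 to 898 CPM over all libraries, and Cd74 held 57.6% of that sum. Of that list, Flt3, Siglech, Batf3 and Xcr1 stood at 1.6 CPM at most, and Itgax at 12.4 to 20.7 CPM. The 10 mast cell and basophil markers summed to 555 to 653 CPM, and Kit held 36.4% of that sum. In TGFb replicate 3, Prss34 stood at 3.46 CPM, beside 34.2 and 21.0 CPM in replicates 1 and 2. Gata2 stood at 0.466 CPM there, beside 7.57 and 5.25 CPM. Kit, Mcpt8 and Cma1 of TGFb replicate 3, at 229, 233 and 110 CPM, lay inside or above the range of those replicates. The 8 neutrophil markers in the table summed to 220 to 298 CPM, and Ctsg held 97.9% of that sum. The 6 B cell markers summed to at most 1.85 CPM in any library, and the 7 T cell markers in the table to at most 22.4 CPM. In these bulk samples, fewer cells of a type and less RNA per cell cannot be told apart. TGFb replicate 3 was low and SIS3_TGFb replicate 3 high in macrophage markers. TGFb replicate 3 also had the lowest sums of erythroid and megakaryocyte markers (7.66 CPM, beside 38.05 and 30.6 CPM in replicates 1 and 2) and of T cell markers (8.05 CPM, beside 22.4 and 18.4 CPM). The part of these cell types in the results was not tested.

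With TGF-β1 alone, 3 of the 4 carriers and several glycolytic enzymes fell while Hk1, Pgm1, Pfkfb3 and Vegfa rose. In TGFb against Ctrl, 4 of the 32 genes rose and 14 fell by the quasi-likelihood test of edgeR at a Benjamini-Hochberg adjusted p below 0.05. Of all genes tested, 17.9% rose and 16.4% fell, so the 12.5% of members that rose is below that share and the 43.8% that fell is above it. The median log2 change was -0.11 for the members and -0.0036 over all genes tested. In SIS3_TGFb against TGFb, 3 members (Pfkfb3, Hif1a and Vegfa) rose and 21 fell, or 9.38% and 65.6%, beside 21.2% and 20.6% of all genes tested. The median log2 change there was -0.25 for the members and 0.01 over all genes. In SIS3_TGFb against Ctrl, the same test called 3 members higher (Pfkfb3, Hif1a and Vegfa) and 24 lower, beside 29% and 24.9% of all genes tested, with medians of -0.29 and 0.02. Each pair of these comparisons shares a group of libraries, so their calls are not independent of each other. Because the list was made with earlier results known, the shares of members beside all genes are a description. Upper-quartile factors moved the share of higher calls among all called genes from 52.2% to 41.3% in TGFb against Ctrl. There 4 members were higher and 17 lower, beside 14.8% and 21.0% of all genes tested. With no scaling factors the share of higher calls went from 50.6% to 71.1% in SIS3_TGFb against TGFb. The members then counted 4 higher and 17 lower, beside 30.2% and 12.3% of all genes tested. In SIS3_TGFb against Ctrl, also with no scaling factors, the share of higher calls went from 53.8% to 63.8%. There 3 members were higher and 23 lower, beside 34.6% and 19.6% of all genes tested.

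**Figure D1:**
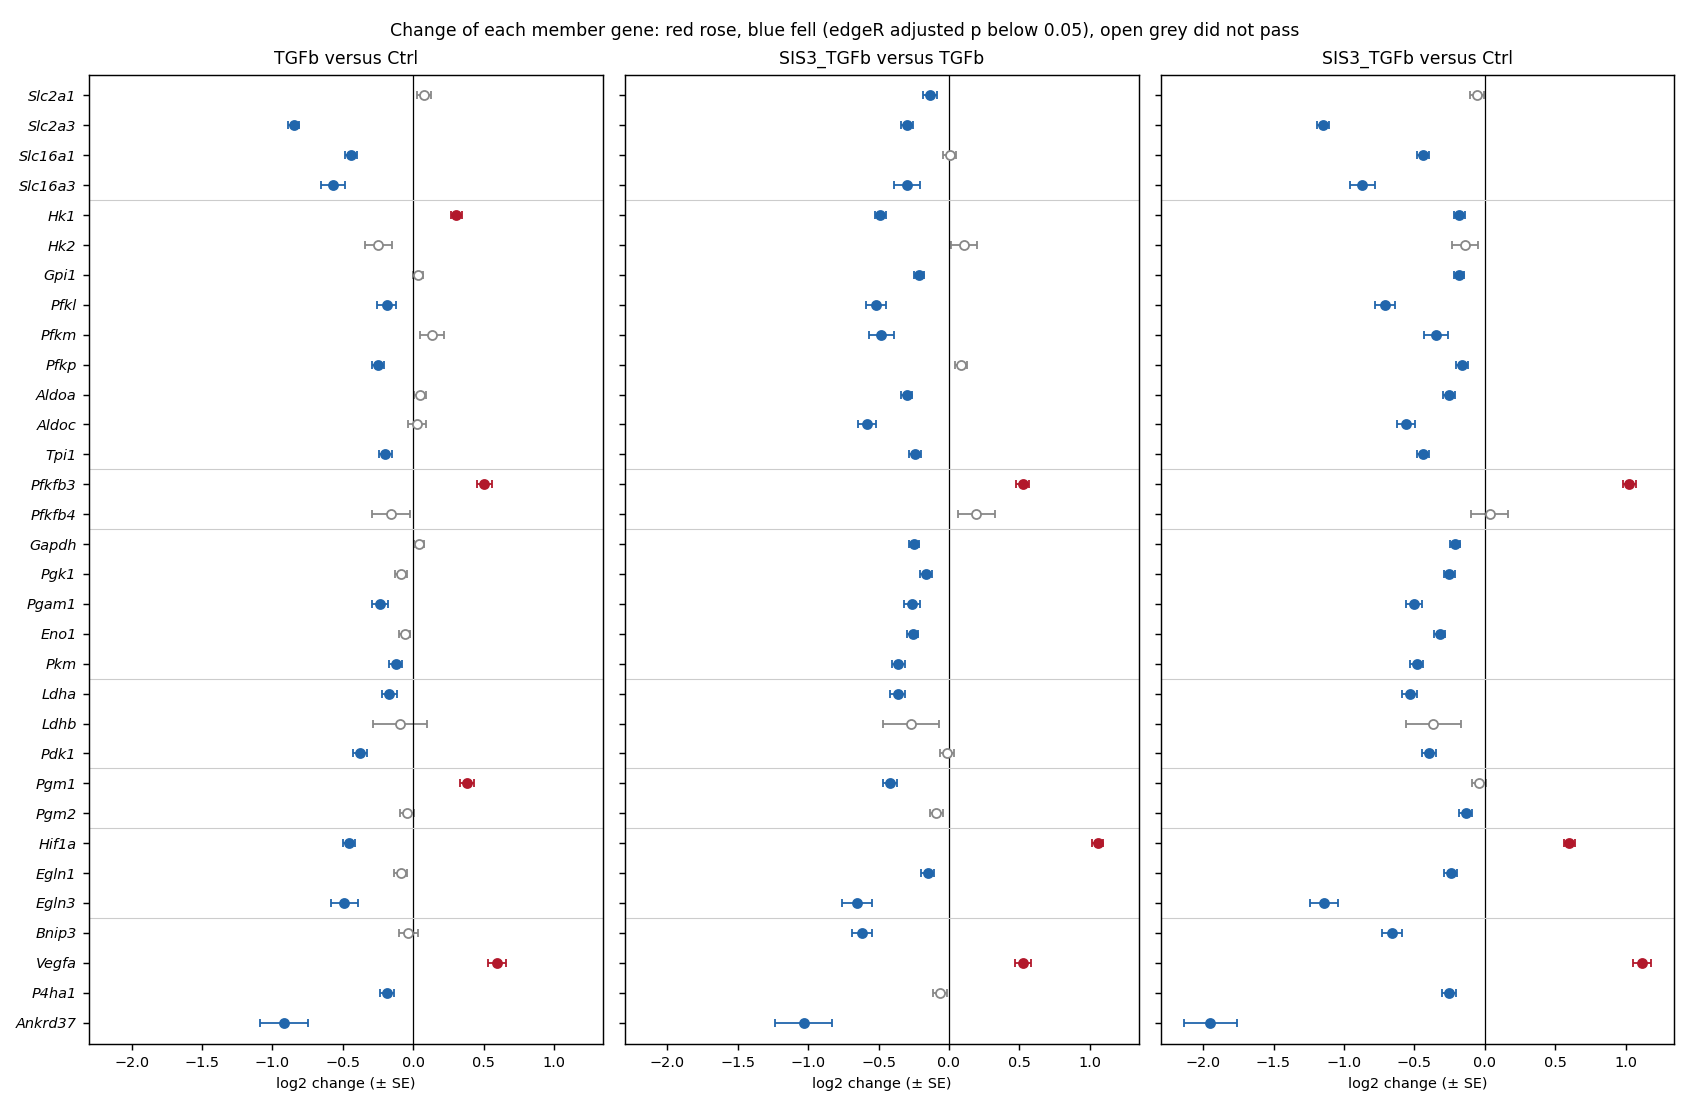
Log2 change (± SE) of each of the 32 genes in the 3 comparisons, fitted over 9 libraries; red points rose and blue points fell at an adjusted p below 0.05, and open grey points did not pass. Most filled points of the middle panel lie left of 0, and Hif1a (1.06), Vegfa (0.53) and Pfkfb3 (0.52) lie to its right.

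Several transcripts of glycolysis were among the most abundant in untreated cells, and others were not. Per kilobase of exon, Gapdh stood at 2491 CPM per kb in Ctrl, rank 16 of the 11796 tested genes with a known exon length, followed by Aldoa at 909 (rank 80) and Pkm at 622 (rank 112). Pfkl ranked 2602, Aldoc 4400 and Hk2 6061. Ldhb and Pfkfb4 were the scarcest members, at 2.19 and 1.47 CPM per kb (ranks 8917 and 9572). Together the 32 genes took 1.302%, 1.326% and 1.315% of all counts in the Ctrl libraries. Their share was 1.218%, 1.276% and 1.251% in TGFb and 1.126%, 1.09% and 1.18% in SIS3_TGFb. The groups did not overlap in this share, which is led by a few genes, since Gapdh, Aldoa and Pkm held 53.4% of the members' counts.

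**Figure D2:**
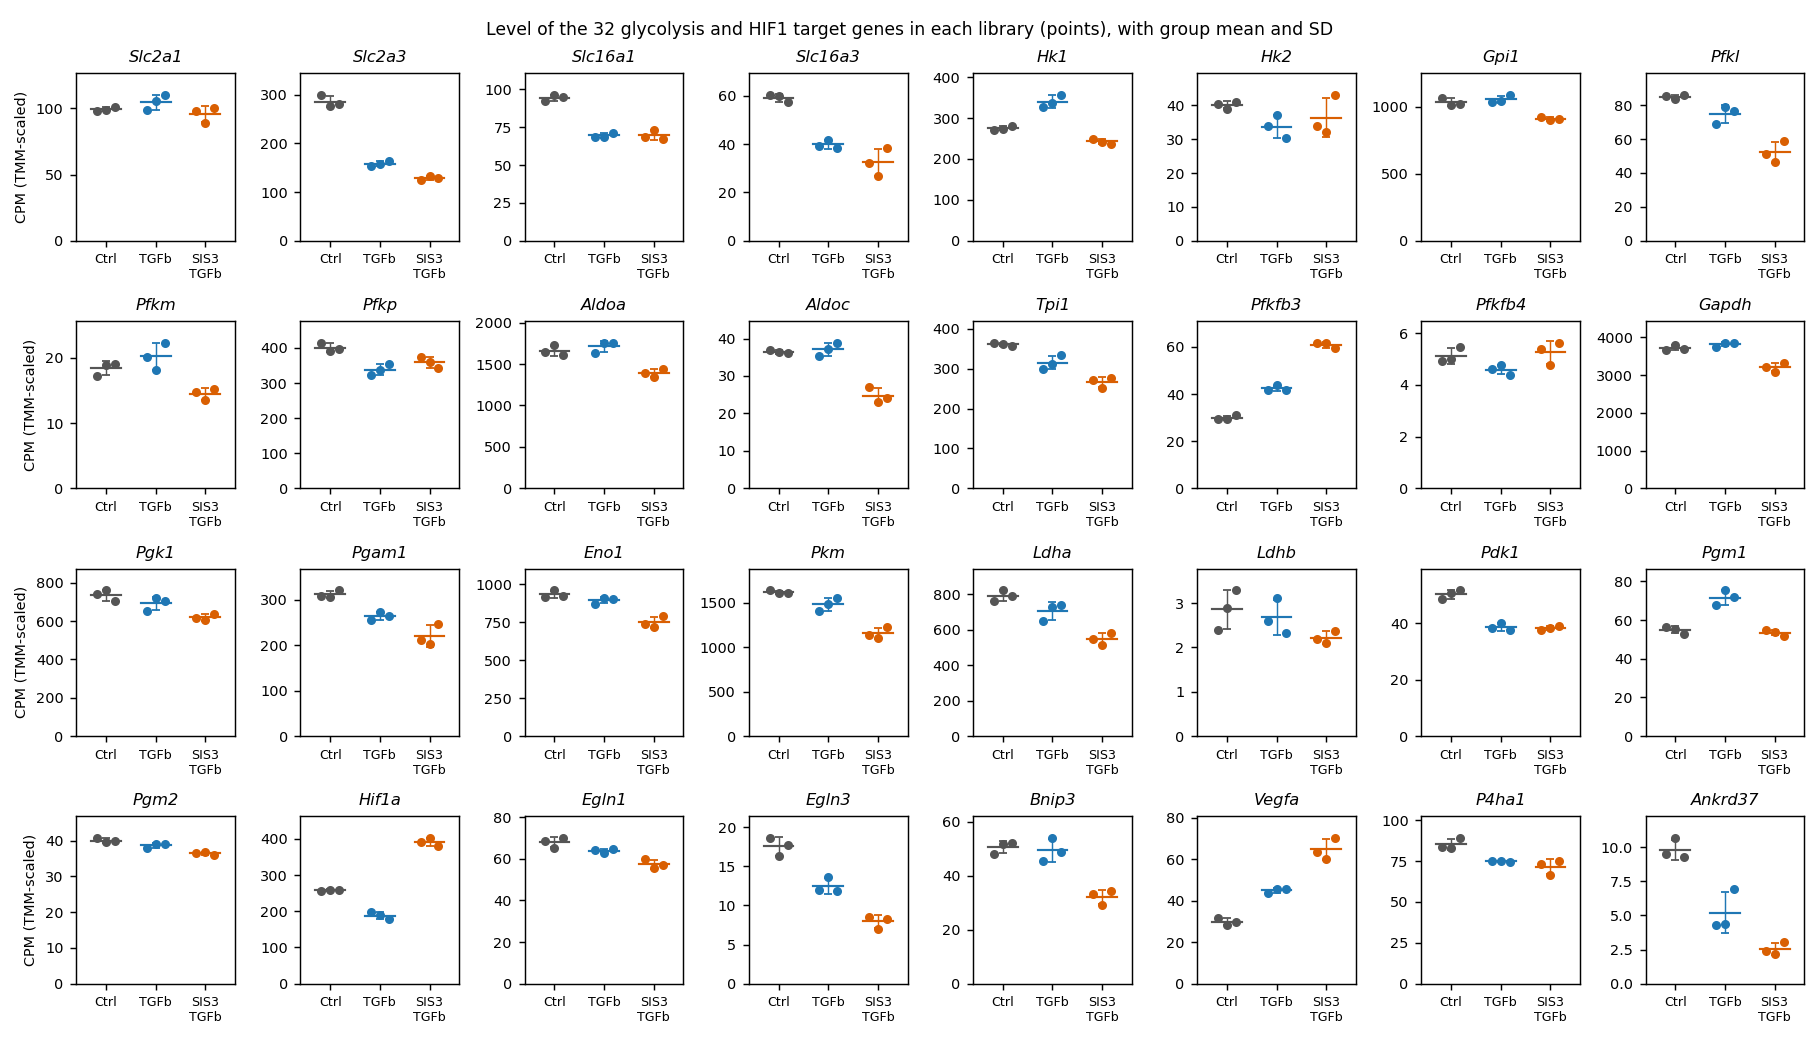
CPM of each of the 32 genes in each library (points, replicates 1 to 3 from left to right), with the mean (line) and SD (bar) of each group; every axis is linear and starts at 0. The steps of Slc2a3 down (299 to 125 CPM) and of Vegfa and Pfkfb3 up separate all 3 groups.

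Of the 4 carriers, 3 fell with TGF-β1 (75.0%, beside 16.4% of all genes tested) and 1 did not pass. In SIS3_TGFb against TGFb, 3 of the 4 fell (75.0%, beside 20.6% of all genes) and 0 rose. Slc2a3 (Entrez 20527, chr6:122727809-122802363, GRCm38.p6) codes for GLUT3, a glucose carrier with high affinity. It stood at 299, 277 and 281 CPM in Ctrl, 154, 158 and 163 CPM in TGFb and 125, 134 and 128 CPM in SIS3_TGFb. Every TGFb library was below every Ctrl library, and every SIS3_TGFb library was lower again. Its log2 change was -0.85 ± 0.041 (SE) with TGF-β1 (adjusted p 1.2e-10), and a further -0.30 ± 0.042 in SIS3_TGFb against TGFb (adjusted p 3.7e-05). Slc2a1, which codes for the ubiquitous carrier GLUT1, stood at 98.1, 98.5 and 101 CPM in Ctrl, 98.8, 105 and 110 CPM in TGFb and 97.9, 88.8 and 100.0 CPM in SIS3_TGFb. Its groups overlapped throughout. The log2 change of Slc2a1 was 0.08 ± 0.050 with TGF-β1 (adjusted p 0.25), and it fell by 0.13 ± 0.050 in SIS3_TGFb against TGFb (adjusted p 0.044). That call ended under upper-quartile factors (adjusted p 0.059), with no scaling factors (0.47) and in a fit of those 2 groups only (0.069). It also ended without any one Ctrl library, TGFb replicate 2 or 3, or SIS3_TGFb replicate 1 or 2, with adjusted p from 0.054 to 0.21. Per kilobase, Slc2a3 was 2.37 ± 0.12 times Slc2a1 in Ctrl (SD, n = 3), 1.25 ± 0.034 times in TGFb and 1.11 ± 0.11 times in SIS3_TGFb.

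The lactate carriers fell too. Slc16a1 (MCT1), which moves lactate and pyruvate in either direction, stood at 92.4, 96.3 and 94.7 CPM in Ctrl, 68.7, 68.7 and 71.4 CPM in TGFb and 68.6, 73.5 and 67.2 CPM in SIS3_TGFb. TGFb and SIS3_TGFb overlapped and both lay below Ctrl. Its log2 change was -0.44 ± 0.043 with TGF-β1 (adjusted p 6.7e-07) and 0.00 ± 0.044 in SIS3_TGFb against TGFb (adjusted p 0.95). Slc16a3 (MCT4), the exporter typical of highly glycolytic cells, stood at 60.3, 59.9 and 57.4 CPM in Ctrl, 39.3, 41.7 and 38.5 CPM in TGFb and 32.3, 26.7 and 38.3 CPM in SIS3_TGFb. It fell by 0.57 ± 0.086 on the log2 scale with TGF-β1 (adjusted p 7.4e-05). SIS3_TGFb replicate 3 lay just under the lowest TGFb library, and the change of -0.30 ± 0.091 between these groups passed (adjusted p 0.016). The latter call ended with no scaling factors (adjusted p 0.086), without TGFb replicate 2 (0.056) and without SIS3_TGFb replicate 2 (0.068).

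Hexokinases trap glucose by phosphorylating it. Hk1 (Entrez 15275, chr10:62268855-62379920), the form most tissues hold, stood at 272, 273 and 282 CPM in Ctrl, 327, 338 and 356 CPM in TGFb and 249.8, 242 and 237 CPM in SIS3_TGFb. The 3 groups did not overlap, with TGFb highest and SIS3_TGFb lowest. Hk1 rose by 0.30 ± 0.039 with TGF-β1 (log2, adjusted p 1.2e-05), and its log2 change was -0.49 ± 0.039 in SIS3_TGFb against TGFb (adjusted p 1e-07) and -0.18 ± 0.039 against Ctrl (adjusted p 0.00096). Hk2, the inducible form and a HIF1 target, stood at 40.3, 39.0 and 41.0 CPM in Ctrl, 33.9, 37.1 and 30.2 CPM in TGFb and 34.0, 32.2 and 43.0 CPM in SIS3_TGFb. All TGFb libraries were below Ctrl, but the log2 change of -0.25 ± 0.094 did not pass (adjusted p 0.053). Hk2 passed as lower under upper-quartile factors (adjusted p 0.025), the size factors of DESeq2 (0.045), no filter (0.019), DESeq2 itself (0.041) and a fit of the 2 groups only (0.013). It also passed without TGFb replicate 2 (adjusted p 0.025), SIS3_TGFb replicate 2 (0.037) or SIS3_TGFb replicate 3 (0.0082). In SIS3_TGFb against TGFb the log2 change of Hk2 was 0.11 ± 0.094 (adjusted p 0.39), and it was -0.03 without SIS3_TGFb replicate 3. Without that library Hk2 was also called lower than in Ctrl (log2 change -0.28, adjusted p 0.0051), where the value over all libraries was -0.14 (adjusted p 0.22).

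Phosphofructokinase commits sugar to glycolysis and is built from 3 kinds of subunit. Pfkl stood at 85.4, 83.9 and 86.0 CPM in Ctrl, 68.8, 78.7 and 76.6 CPM in TGFb and 51.2, 46.3 and 58.9 CPM in SIS3_TGFb. Pfkp stood at 415, 391 and 397 CPM in Ctrl, 322, 337 and 353 CPM in TGFb and 373, 359.9 and 343 CPM in SIS3_TGFb. Pfkm was lower in abundance, with 17.2, 18.9 and 19.1 CPM in Ctrl, 20.1, 18.2 and 22.3 CPM in TGFb and 14.7, 13.5 and 15.2 CPM in SIS3_TGFb. For Pfkl the 3 groups did not overlap, for Pfkp the SIS3_TGFb libraries overlapped TGFb, and for Pfkm they lay below both other groups. The log2 change of Pfkl was -0.19 ± 0.068 with TGF-β1 (adjusted p 0.043) and -0.52 ± 0.071 in SIS3_TGFb against TGFb (adjusted p 3e-05). The first of these calls ended without any one Ctrl library, TGFb replicate 1 or SIS3_TGFb replicate 1, with adjusted p from 0.055 to 0.19. Pfkp, the platelet type subunit, fell by 0.25 ± 0.043 with TGF-β1 (log2, adjusted p 0.00023). Its change of 0.09 ± 0.043 in SIS3_TGFb against TGFb did not pass (adjusted p 0.11), though it passed as higher with no scaling factors (0.0015), without TGFb replicate 3 (0.034) and without SIS3_TGFb replicate 3 (0.047). Pfkm, the muscle type subunit, had a log2 change of 0.13 with TGF-β1 (adjusted p 0.25) and fell by 0.48 ± 0.086 in SIS3_TGFb against TGFb (adjusted p 0.00038).

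The other enzymes of the upper pathway were lower in SIS3_TGFb. Gpi1, which turns glucose 6-phosphate into fructose 6-phosphate, stood at 1067, 1015 and 1019 CPM in Ctrl, 1036, 1044 and 1087 CPM in TGFb and 923, 899 and 906 CPM in SIS3_TGFb. Aldoa, the main aldolase, stood at 1646, 1724 and 1605 CPM in Ctrl, 1638, 1757 and 1751 CPM in TGFb and 1394, 1347 and 1435 CPM in SIS3_TGFb. For both genes TGFb overlapped Ctrl and SIS3_TGFb lay below all other libraries. The log2 change in SIS3_TGFb against TGFb was -0.22 ± 0.035 for Gpi1 (adjusted p 0.00015) and -0.30 ± 0.041 for Aldoa (adjusted p 2.6e-05). Aldoc, a second aldolase, stood at 37.0, 36.3 and 36.0 CPM in Ctrl, 35.3, 37.1 and 38.9 CPM in TGFb and 27.1, 23.0 and 24.2 CPM in SIS3_TGFb, and fell by 0.58 ± 0.065 between the last groups (log2, adjusted p 3.8e-06). Tpi1, which interconverts the triose phosphates, was lower at each step, at 365, 362 and 358 CPM in Ctrl, 300.2, 312 and 334 CPM in TGFb and 271, 253 and 276 CPM in SIS3_TGFb. Its log2 changes were -0.20 ± 0.043 (adjusted p 0.002) and -0.24 ± 0.044 (adjusted p 0.00039). Of the 9 upper glycolysis genes, from hexokinase to Tpi1, 1 rose and 3 fell with TGF-β1 (11.1% and 33.3%, beside 17.9% and 16.4% of all genes tested). Between SIS3_TGFb and TGFb, 0 rose and 7 fell (77.8% fell, beside 20.6% of all genes).

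Pfkfb3 moved the opposite way. It codes for an enzyme that makes fructose 2,6-bisphosphate, the strongest activator of phosphofructokinase, and lies at chr2:11471430-11554071 (Entrez 170768). Pfkfb3 stood at 29.3, 29.3 and 30.9 CPM in Ctrl, 41.7, 43.7 and 41.7 CPM in TGFb and 61.7, 61.4 and 59.5 CPM in SIS3_TGFb. The groups were well apart, each higher than the one before. The log2 change was 0.51 ± 0.051 with TGF-β1 (adjusted p 8.8e-07), 0.52 ± 0.047 in SIS3_TGFb against TGFb (adjusted p 4.1e-07) and 1.03 ± 0.049 in SIS3_TGFb against Ctrl (adjusted p 7.1e-11). Pfkfb4, its scarce paralog, stood at 4.92, 4.99 and 5.48 CPM in Ctrl, 4.62, 4.76 and 4.39 CPM in TGFb and 5.38, 4.77 and 5.63 CPM in SIS3_TGFb, and passed in no comparison (adjusted p 0.27 to 0.84).

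All 5 enzymes of the lower pathway, from Gapdh to Pkm, fell in SIS3_TGFb against TGFb, where 20.6% of all genes tested fell. With TGF-β1, 2 of the 5 fell (40.0%, beside 16.4% of all genes). Gapdh, which oxidises glyceraldehyde 3-phosphate, stood at 3677, 3802 and 3693 CPM in Ctrl, 3756, 3851 and 3861 CPM in TGFb and 3227, 3096 and 3317 CPM in SIS3_TGFb. Its log2 change was 0.04 with TGF-β1 (adjusted p 0.46) and -0.25 ± 0.036 in SIS3_TGFb against TGFb (adjusted p 4.8e-05). Gapdh is often used as a reference transcript, and here it was lower in every SIS3_TGFb library than in any other. Pgk1, the first step that yields ATP, stood at 744, 760.4 and 704 CPM in Ctrl, 655, 721 and 705 CPM in TGFb and 616, 605 and 636 CPM in SIS3_TGFb. It had a log2 change of -0.09 with TGF-β1 (adjusted p 0.13), which passed under upper-quartile factors (0.035) and with no scaling factors (0.046). In SIS3_TGFb against TGFb it fell by 0.16 ± 0.042 (adjusted p 0.0055), a call that ended with no scaling factors (0.12). Pgam1, a phosphoglycerate mutase, was separated at each step, with 309, 308 and 321 CPM in Ctrl, 257, 273 and 265 CPM in TGFb and 212, 202 and 248 CPM in SIS3_TGFb. Its log2 changes were -0.24 ± 0.057 (adjusted p 0.0039) and -0.26 ± 0.058 (adjusted p 0.0018).

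Eno1, the enolase of most tissues, stood at 916, 958 and 920.0 CPM in Ctrl, 870.1, 911 and 899 CPM in TGFb and 739, 714 and 788 CPM in SIS3_TGFb. The 3 groups did not overlap, and the log2 change was -0.06 ± 0.040 with TGF-β1 (adjusted p 0.27) and -0.26 ± 0.040 in SIS3_TGFb against TGFb (adjusted p 9.7e-05). Its near-identical copy Eno1b, listed as a gene of its own, had a log2 change of -0.27 ± 0.051 in the latter comparison (adjusted p 0.00056), and how reads were split between the copies is uncertain. Processed copies of Gapdh, Pgk1, Pgam1, Tpi1 and Ldha also exist in the mouse genome, so the levels of these genes carry a like uncertainty. Pkm, pyruvate kinase, stood at 1640, 1605 and 1608 CPM in Ctrl, 1404, 1486 and 1558 CPM in TGFb and 1142, 1099 and 1228 CPM in SIS3_TGFb. The groups did not overlap. The log2 change of Pkm was -0.13 ± 0.045 with TGF-β1 (adjusted p 0.042) and -0.36 ± 0.045 in SIS3_TGFb against TGFb (adjusted p 1.4e-05). The first call ended without any one Ctrl library, TGFb replicate 1 or 2, or SIS3_TGFb replicate 1, with adjusted p from 0.06 to 0.18. Counts are per gene, so the splice forms of Pkm were not separated.

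At the pyruvate branch, Ldha (Entrez 16828, chr7:46842274-46855627) codes for the lactate dehydrogenase subunit that favours lactate. It stood at 762, 821 and 790.2 CPM in Ctrl, 646, 725 and 738 CPM in TGFb and 547, 512 and 580.4 CPM in SIS3_TGFb. The groups did not overlap, and the log2 change was -0.17 ± 0.053 with TGF-β1 (adjusted p 0.021) and -0.36 ± 0.054 in SIS3_TGFb against TGFb (adjusted p 6.2e-05). The first call ended without Ctrl replicate 2 (adjusted p 0.091), Ctrl replicate 3 (0.051) or TGFb replicate 1 (0.11). Ldhb, the subunit of oxidative tissues, was scarce, with 35 to 54 counts per library, and at 2.09 to 3.29 CPM passed in no comparison (adjusted p 0.13 to 0.75). Pdk1, which blocks pyruvate dehydrogenase and so keeps pyruvate out of mitochondria, stood at 48.5, 50.8 and 51.6 CPM in Ctrl, 38.4, 40.1 and 37.5 CPM in TGFb and 37.5, 38.4 and 38.9 CPM in SIS3_TGFb. Both treated groups lay below Ctrl and overlapped each other. Pdk1 fell by 0.38 ± 0.050 with TGF-β1 (log2, adjusted p 1.8e-05) and differed by -0.02 between the treated groups (adjusted p 0.83).

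The phosphoglucomutases join glycolysis to glycogen and to sugar nucleotides. Pgm1 stood at 56.7, 55.5 and 53.1 CPM in Ctrl, 67.7, 75.4 and 71.8 CPM in TGFb and 54.8, 53.8 and 52.0 CPM in SIS3_TGFb. TGFb stood above both other groups, which overlapped. Pgm1 rose by 0.38 ± 0.049 with TGF-β1 (log2, adjusted p 1.5e-05), fell by 0.42 ± 0.049 in SIS3_TGFb against TGFb (adjusted p 6e-06) and differed by -0.04 between SIS3_TGFb and Ctrl (adjusted p 0.52). Pgm2 stood between 36.1 and 40.8 CPM in all libraries, and passed only in SIS3_TGFb against Ctrl (log2 change -0.13 ± 0.048, adjusted p 0.027). That call ended with no scaling factors (adjusted p 0.21), in DESeq2 (0.083), and without Ctrl replicate 1 or 3 or SIS3_TGFb replicate 1 or 3 (0.051 to 0.074).

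Among the oxygen sensing genes, Hif1a (Entrez 15251, chr12:73901324-73947554) fell with TGF-β1 and was highest in SIS3_TGFb. It stood at 256, 259.5 and 260.0 CPM in Ctrl, 197, 190.0 and 178 CPM in TGFb and 392, 402 and 381 CPM in SIS3_TGFb. The groups were far apart compared with the spread inside them. The log2 change of Hif1a was -0.46 ± 0.040 with TGF-β1 (adjusted p 2e-07), 1.06 ± 0.040 in SIS3_TGFb against TGFb (adjusted p 2.6e-11) and 0.60 ± 0.039 in SIS3_TGFb against Ctrl (adjusted p 3.2e-09). Egln3, a prolyl hydroxylase of HIF1α that is itself a HIF1 target (Entrez 112407, chr12:54178981-54203874), went down at each step. Its levels were 18.6, 16.3 and 17.8 CPM in Ctrl, 12.0, 13.7 and 11.8 CPM in TGFb and 8.51, 7.03 and 8.30 CPM in SIS3_TGFb, with no overlap. The log2 change of Egln3 was -0.49 ± 0.094 with TGF-β1 (adjusted p 0.00071) and -0.65 ± 0.10 in SIS3_TGFb against TGFb (adjusted p 0.00013). Egln1, the main oxygen sensor of the family, stood at 68.5, 65.4 and 70.0 CPM in Ctrl, 64.4, 62.8 and 64.6 CPM in TGFb and 59.8, 55.6 and 57.1 CPM in SIS3_TGFb. It changed by -0.09 with TGF-β1 (log2, adjusted p 0.14, and 0.029 under upper-quartile factors) and fell by 0.15 ± 0.045 in SIS3_TGFb against TGFb (adjusted p 0.013). The latter call ended with no scaling factors (adjusted p 0.25) and without SIS3_TGFb replicate 2 (0.058).

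The HIF1 targets outside glycolysis did not move as one. Vegfa, the vascular growth factor (Entrez 22339, chr17:46016993-46032377), stood at 31.5, 28.2 and 29.9 CPM in Ctrl, 43.7, 45.8 and 45.6 CPM in TGFb and 63.8, 60.3 and 70.3 CPM in SIS3_TGFb. Each group lay above the one before it, with log2 changes of 0.59 ± 0.065 with TGF-β1 (adjusted p 2.3e-06) and 0.53 ± 0.060 in SIS3_TGFb against TGFb (adjusted p 4.6e-06). Ankrd37, a small ankyrin repeat gene strongly induced by HIF1 (Entrez 654824, chr8:45996908-46000414), went the other way, from 9.46, 10.7 and 9.25 CPM in Ctrl to 4.31, 4.39 and 6.92 CPM in TGFb and 2.42, 2.15 and 3.02 CPM in SIS3_TGFb. The groups did not overlap, although TGFb replicate 3 was well above the other TGFb libraries. Ankrd37 had log2 changes of -0.92 ± 0.17 (adjusted p 0.00049) and -1.03 ± 0.20 (adjusted p 0.0008) at the successive steps, and -1.95 ± 0.19 in SIS3_TGFb against Ctrl (adjusted p 3e-07), on 37 to 173 counts per library. Bnip3, a mitophagy receptor (Entrez 12176, chr7:138890836-138909506), stood at 48.0, 51.7 and 52.3 CPM in Ctrl, 45.5, 54.0 and 48.7 CPM in TGFb and 33.1, 29.2 and 34.2 CPM in SIS3_TGFb. TGFb overlapped Ctrl (log2 change -0.04, adjusted p 0.73), and SIS3_TGFb lay below both (-0.62 ± 0.072 against TGFb, adjusted p 5.7e-06). P4ha1, a collagen prolyl hydroxylase subunit, stood at 83.6, 82.9 and 89.1 CPM in Ctrl, 74.8, 75.2 and 74.6 CPM in TGFb and 73.2, 66.4 and 75.0 CPM in SIS3_TGFb. It fell by 0.19 ± 0.048 with TGF-β1 (log2, adjusted p 0.0066) and differed by -0.07 between the treated groups (adjusted p 0.3).

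The sequence before the start of 5 members is printed because they cover the opposite directions seen here, with Ldha, Bnip3 and Egln3 lower in SIS3_TGFb than in TGFb, and Hif1a and Vegfa higher. Each run is the 250 bases before a start site in RefSeq (GRCm38.p6), 5′ to 3′ on the strand of the gene, and capitals mark every match, on either strand, to ACGTG, to the related core GCGTG, or to the palindrome CACGTG, which holds ACGTG on both strands. The windows are chr7:46845554-46845803 for Ldha (plus strand), chr7:138909507-138909756 for Bnip3 (minus strand), chr12:54203875-54204124 for Egln3 (minus strand), chr12:73907617-73907866 for Hif1a (plus strand) and chr17:46032378-46032627 for Vegfa (minus strand).
Ldha: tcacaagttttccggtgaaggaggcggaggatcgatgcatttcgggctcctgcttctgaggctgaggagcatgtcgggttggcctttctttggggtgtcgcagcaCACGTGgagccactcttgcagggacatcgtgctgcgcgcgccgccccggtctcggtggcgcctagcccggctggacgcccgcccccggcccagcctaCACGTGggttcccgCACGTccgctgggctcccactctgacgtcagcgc
Bnip3: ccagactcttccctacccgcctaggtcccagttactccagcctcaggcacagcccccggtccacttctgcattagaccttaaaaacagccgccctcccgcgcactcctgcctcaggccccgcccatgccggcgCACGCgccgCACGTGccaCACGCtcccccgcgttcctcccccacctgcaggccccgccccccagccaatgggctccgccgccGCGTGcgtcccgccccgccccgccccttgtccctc
Egln3: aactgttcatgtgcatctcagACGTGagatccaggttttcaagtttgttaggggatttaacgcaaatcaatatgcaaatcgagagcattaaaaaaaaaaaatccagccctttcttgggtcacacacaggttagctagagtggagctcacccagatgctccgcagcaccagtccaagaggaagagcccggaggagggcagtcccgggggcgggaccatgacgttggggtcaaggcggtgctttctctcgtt
Hif1a: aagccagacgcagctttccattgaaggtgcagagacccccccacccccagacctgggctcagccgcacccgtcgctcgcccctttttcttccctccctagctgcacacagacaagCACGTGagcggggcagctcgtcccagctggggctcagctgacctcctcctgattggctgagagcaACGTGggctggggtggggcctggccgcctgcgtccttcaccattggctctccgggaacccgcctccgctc
Vegfa: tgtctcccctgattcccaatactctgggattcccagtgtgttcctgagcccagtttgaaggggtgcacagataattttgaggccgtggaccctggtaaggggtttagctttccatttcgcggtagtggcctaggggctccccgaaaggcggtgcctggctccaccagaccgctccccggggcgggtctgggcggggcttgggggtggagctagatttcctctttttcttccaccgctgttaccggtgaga
Counting both strands, the Ldha run held 5 matches to ACGTG, of which 4 came from its 2 copies of CACGTG, and the Bnip3 run held 2 to ACGTG, from 1 CACGTG, and 3 to GCGTG. Egln3 held 1 match to ACGTG. The Hif1a run held 3 matches to ACGTG, of which 2 came from 1 CACGTG, and the Vegfa run held 0 matches. A second RefSeq start of Vegfa, with its window of 300 bases at chr17:46025114-46025413, held 1 match to ACGTG and 1 to GCGTG and is not printed. Ldha has a further start as well, whose window (chr7:46846832-46847131) held 0 matches to ACGTG and 2 to GCGTG.

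Over whole RefSeq windows of 300 bases (250 before to 50 after the start), 31 of the 32 members had an entry, and Slc2a3 had none. A match to ACGTG on either strand was found for 23 of the 31 (74.2%), beside 29.7% of the 9816 tested genes with a window and 21.8% of all 27025 genes with one. For GCGTG the shares were 64.5% of members, 55.6% of tested genes and 35.2% of all genes. CACGTG, the core bound by MYC and related factors, was found for 19.4% of members, 11.8% of tested genes and 8.09% of all genes. A gene with several start sites counted once if any of its windows held the match, and these matches are descriptions of sequence, not of binding. The 31 members had 45 windows, and the 9816 tested genes had 12474. By window, ACGTG was found in 57.8% of member windows and 25.7% of those of tested genes. The members were listed partly as HIF1 targets, so these shares are not independent of that choice.

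**Figure D3:**
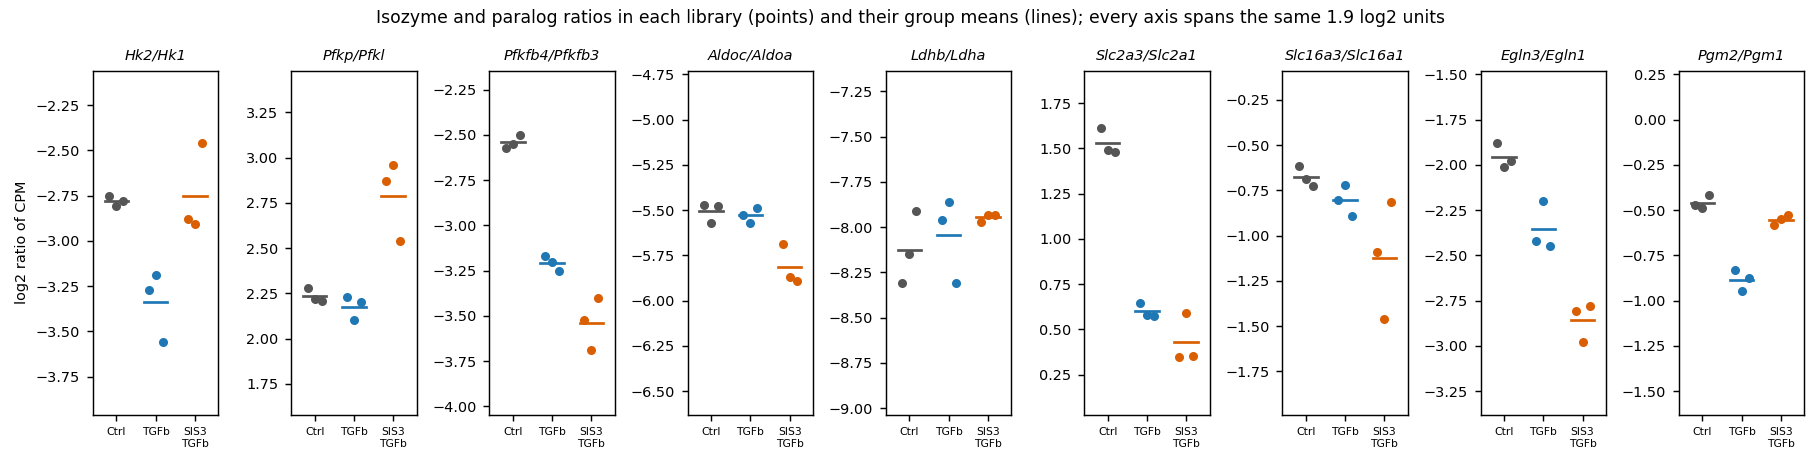
Log2 ratio of CPM for 9 pairs of isozymes or paralogs in each library (points) with group means (lines); every axis spans the same range in log2 units. Hk2/Hk1 and Pgm2/Pgm1 are lowest in TGFb, and Egln3/Egln1 and Pfkfb4/Pfkfb3 go down from Ctrl to TGFb to SIS3_TGFb.

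Ratios inside a library do not depend on the scaling factors, and show where paralogs moved unequally. With 3 libraries against 3, the smallest two-sided exact permutation p is 0.1, which becomes 0.15 after Benjamini-Hochberg adjustment over the 27 ratio differences, so none can pass. The groups were fully apart, at that smallest p, in 18 of the 27. Relative to Hk1, Hk2 shifted by -0.56 on the log2 scale with TGF-β1 and by 0.59 in SIS3_TGFb against TGFb. SIS3_TGFb replicate 3 was highest, with a log2 ratio of -2.46 beside -2.88 and -2.91 in the other two. Relative to Pfkl, Pfkp shifted by -0.06 with TGF-β1 (exact permutation p 0.3) and by 0.61 in SIS3_TGFb against TGFb (p 0.1). Relative to Slc2a1, Slc2a3 shifted by -0.93 with TGF-β1, and by -0.17 (exact permutation p 0.3) in SIS3_TGFb against TGFb. The log2 ratio Egln3/Egln1 differed by -0.40 with TGF-β1 and by a further -0.50 in SIS3_TGFb against TGFb. Aldoc/Aldoa differed by -0.02 (exact permutation p 0.6) and -0.29 (p 0.1) at the same steps.

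Other genes of these pathways were taken from lists fixed by name. Of 28 tested genes of glycolysis and pyruvate use that are not members, 1 rose and 4 fell with TGF-β1 (3.57% and 14.3%), and 5 rose and 4 fell in SIS3_TGFb against TGFb (17.9% and 14.3%), with medians of -0.08 and 0.06. Each of these shares was below that of all genes tested, which was 17.9% and 16.4% with TGF-β1 and 21.2% and 20.6% in SIS3_TGFb against TGFb. Pfkfb2, the paralog of Pfkfb3 best known from heart, went from 23.0, 23.2 and 22.4 CPM in Ctrl to 75.6, 73.8 and 88.4 CPM in TGFb and 85.1, 89.3 and 82.0 CPM in SIS3_TGFb. It rose by 1.79 ± 0.069 with TGF-β1 (log2, adjusted p 9.4e-12) and did not pass between the treated groups (0.11 ± 0.059, adjusted p 0.15). Pdp1, a phosphatase that switches pyruvate dehydrogenase on, fell by 0.64 ± 0.069 with TGF-β1 (adjusted p 1.8e-06), and Dlat, a subunit of that complex, by 0.35 ± 0.047 (adjusted p 2.3e-05). In SIS3_TGFb against TGFb, Pck2, mitochondrial phosphoenolpyruvate carboxykinase, rose by 0.69 ± 0.039 (adjusted p 1.9e-09) and Dld, another subunit of the complex, by 0.60 ± 0.047 (adjusted p 9.7e-08). Bsg, the chaperone of MCT1 and MCT4, fell by 0.17 ± 0.041 there (adjusted p 0.0037).

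The pentose phosphate pathway branches off at glucose 6-phosphate and makes NADPH and ribose. Of its 11 genes, all tested, 2 rose and 2 fell with TGF-β1 (18.2% each, near the 17.9% and 16.4% of all genes tested), with a median log2 change of -0.06. Between TGFb and SIS3_TGFb, 1 rose and 6 fell (9.09% and 54.5%, beside 21.2% and 20.6% of all genes), with a median of -0.19. G6pdx, its entry enzyme, stood at 124, 126 and 127 CPM in Ctrl, 122, 118 and 111 CPM in TGFb and 84.0, 87.5 and 94.2 CPM in SIS3_TGFb. It fell by 0.40 ± 0.047 in SIS3_TGFb against TGFb (log2, adjusted p 5.6e-06), and Pgd, the second NADPH-making enzyme, by 0.39 ± 0.070 (adjusted p 0.0004). H6pd, the enzyme of the endoplasmic reticulum, rose by 0.45 ± 0.041 with TGF-β1 (adjusted p 2.9e-07) and fell by 0.37 ± 0.040 in SIS3_TGFb against TGFb (adjusted p 3.4e-06). Rpia, which makes ribose 5-phosphate, fell by 0.52 ± 0.049 with TGF-β1 (adjusted p 4.3e-07). Of 15 tested glycogen genes, 4 rose and 3 fell with TGF-β1 (26.7% and 20.0%, beside 17.9% and 16.4% of all genes), and 3 rose and 6 fell in SIS3_TGFb against TGFb (20.0% and 40.0%, beside 21.2% and 20.6%). Ppp1r3b, which targets a phosphatase to glycogen, rose by 0.52 ± 0.050 (adjusted p 5.9e-07) and then fell by 0.35 ± 0.050 (adjusted p 4.6e-05).

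Of 17 tested HIF subunits and oxygen sensing regulators outside the 32, 3 rose and 4 fell with TGF-β1 (17.6% and 23.5%, beside 17.9% and 16.4% of all genes), and 3 rose and 5 fell in SIS3_TGFb against TGFb (17.6% and 29.4%, beside 21.2% and 20.6%). Epas1, which codes for HIF2α, stood at 430, 410 and 404 CPM in Ctrl, 289, 299.5 and 330 CPM in TGFb and 245, 245 and 227 CPM in SIS3_TGFb. It fell by 0.44 ± 0.048 with TGF-β1 (adjusted p 2.4e-06) and by 0.36 ± 0.049 in SIS3_TGFb against TGFb (adjusted p 3.2e-05), where Hif1a rose. Arnt, the shared partner, was at 34.8 to 41.7 CPM and passed in no comparison (adjusted p 0.17 to 0.64), nor did Hif1an, the asparagine hydroxylase (adjusted p 0.67 to 0.97). Arnt and Hif1an were picked for mention after their values were seen. Arnt2, a paralog of Arnt, stood at 15.6, 15.9 and 13.9 CPM in Ctrl, 25.5, 29.2 and 31.3 CPM in TGFb and 25.0, 22.8 and 24.4 CPM in SIS3_TGFb. It rose by 0.92 ± 0.084 with TGF-β1 (adjusted p 3e-07) and fell by 0.25 ± 0.078 in SIS3_TGFb against TGFb (adjusted p 0.018). Vhl, the ligase that removes hydroxylated HIF1α, rose by 0.41 ± 0.061 and then by 0.24 ± 0.057 (adjusted p 6.1e-05 and 0.0031). Siah2, a ligase for EGLN proteins, stood at 13.3, 13.9 and 14.4 CPM in Ctrl, 9.23, 8.66 and 9.45 CPM in TGFb and 19.3, 20.5 and 19.1 CPM in SIS3_TGFb. It fell by 0.61 ± 0.083 with TGF-β1 (adjusted p 2.6e-05) and rose by 1.11 ± 0.079 in SIS3_TGFb (adjusted p 3.6e-08). Cited2, which competes with HIF1α for its coactivators, fell by 0.30 ± 0.056 and then by 0.78 ± 0.060 (adjusted p 0.00049 and 7.4e-08).

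**Figure D4:**
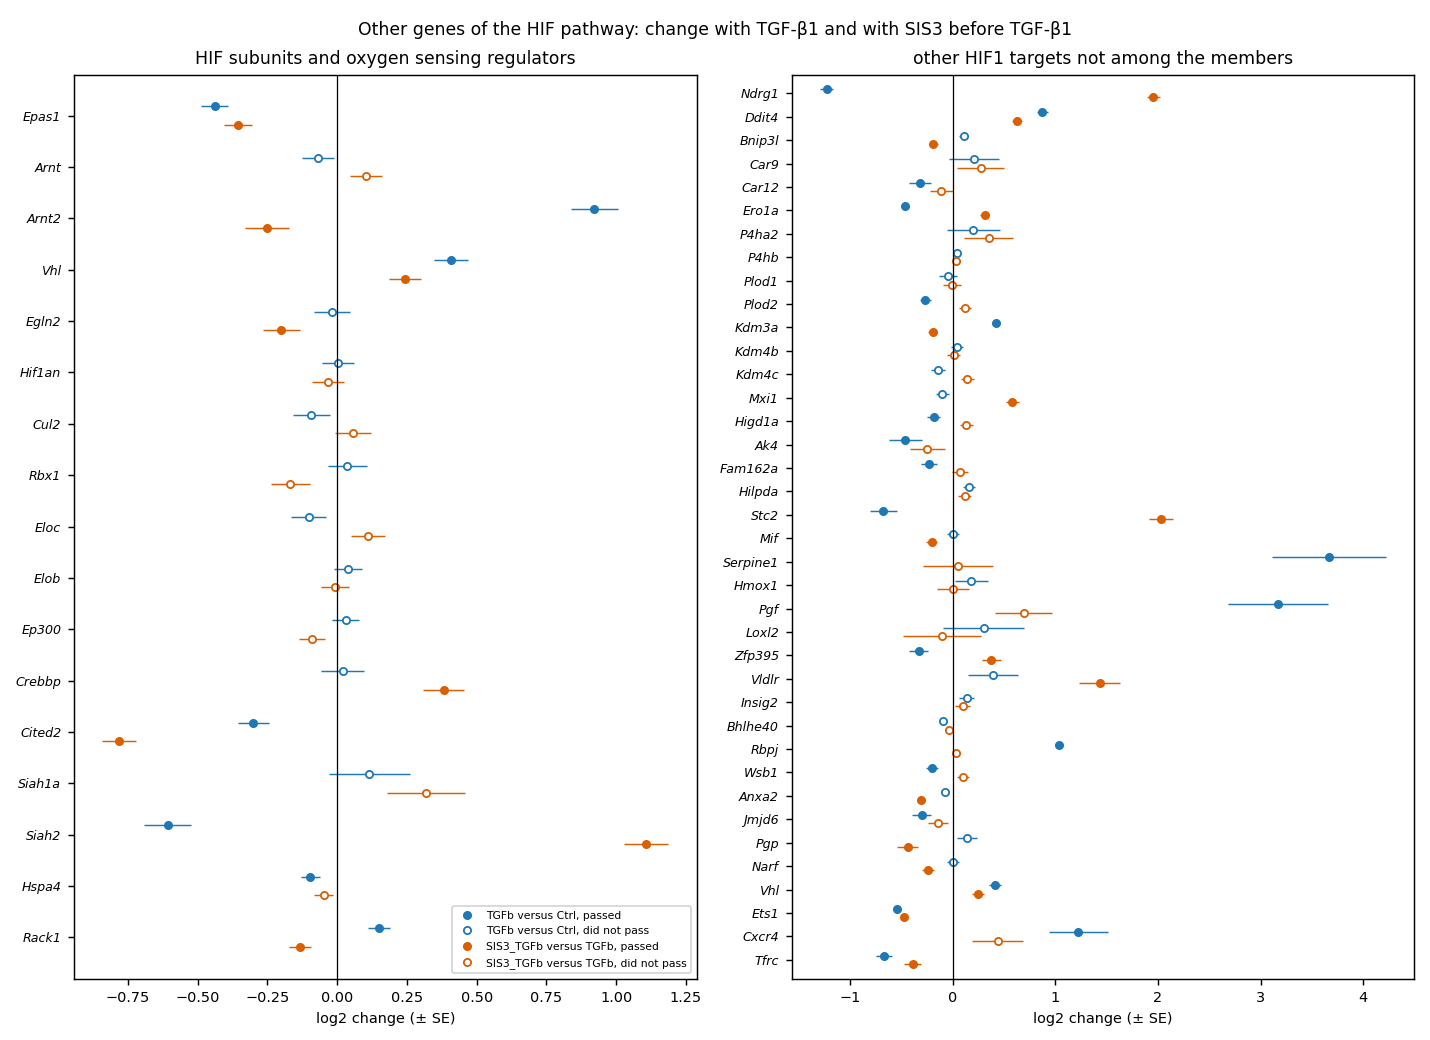
Log2 change (± SE) of HIF subunits and regulators (left) and of HIF1 targets outside the 32 genes (right), with TGF-β1 against Ctrl in blue and in SIS3_TGFb against TGFb in orange; filled points passed at an adjusted p below 0.05. Ndrg1 and Stc2 fall in blue (-1.23 and -0.68) and rise in orange (1.95 and 2.03), while Ets1 falls in both.

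Of 38 further HIF1 targets tested, 7 rose and 13 fell with TGF-β1 (18.4% and 34.2%, beside 17.9% and 16.4% of all genes), with a median log2 change of 0.00. With SIS3 before TGF-β1, 8 rose and 8 fell against TGFb (21.1% each, near the 21.2% and 20.6% of all genes), with a median of 0.06. Ndrg1, a stress response gene, stood at 62.6, 60.8 and 60.0 CPM in Ctrl, 25.1, 25.5 and 27.6 CPM in TGFb and 106, 105 and 91.2 CPM in SIS3_TGFb. It fell by 1.23 ± 0.065 with TGF-β1 (log2, adjusted p 4.4e-10) and rose by 1.95 ± 0.063 in SIS3_TGFb against TGFb (adjusted p 4.4e-12). Stc2, a secreted glycoprotein, fell by 0.68 ± 0.13 and then rose by 2.03 ± 0.12 (adjusted p 0.00088 and 3.5e-09). Ddit4, an inhibitor of mTORC1, rose at both steps, by 0.87 ± 0.052 and 0.63 ± 0.048 (adjusted p 1.9e-09 and 7.4e-08). Tfrc, the transferrin receptor, fell at both, by 0.67 ± 0.074 and 0.39 ± 0.079 (adjusted p 2.5e-06 and 0.00096).

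Single libraries stood at the edge of their group for many members. SIS3_TGFb replicate 2 was the lowest of its group for 23 of the 32 genes (71.9%, beside 30.2% of all genes tested), and SIS3_TGFb replicate 3 the highest for 20 (62.5%, beside 31.4%). TGFb replicate 1 was the lowest of its group for 21 (65.6%, beside 30.7%). The macrophage and monocyte marker sum was 815, 752 and 1271 CPM in SIS3_TGFb replicates 1 to 3, and 859, 1046 and 668 CPM in those of TGFb. In SIS3_TGFb, replicate 2 had the lowest of these sums and replicate 3 the highest. TGFb replicate 2, with the highest sum of its group, was the highest for 16 members (50.0%, beside 31.0% of all genes tested). TGFb replicate 3, with the lowest sum of its group, was the lowest for 8 members (25.0%, beside 38.3% of all genes tested). It was the highest for 15 (46.9%, beside 36.7%). The part of this marker sum in the members' spread was not tested. Without SIS3_TGFb replicate 3, 4 members were higher and 21 lower in SIS3_TGFb against TGFb, beside 19.5% and 18.8% of all genes tested. Against Ctrl, 3 were higher and 24 lower, beside 27.4% and 24.0%. Without TGFb replicate 3, 4 members were higher and 14 lower with TGF-β1, beside 17.2% and 15.2% of all genes tested. In SIS3_TGFb against TGFb that fit gave 4 higher and 20 lower, beside 19.2% and 19.1%.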

How the data were processed

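Poly-A RNA of 9 libraries (100 bp read pairs, DNBseq) was analysed. The authors deposited expected counts per gene, a unit read from the values, of which 10.2% to 11.1% per library are not whole. Per the submitters' processing notes, the builds were GRCm38 and mm10, and the tools RSEM, Bowtie2, HISAT2, StringTie, Cufflinks and DESeq2. Versions, roles and annotation are not stated there. How these estimates divide reads between near-identical copies, such as Eno1 and Eno1b, was not measured here.

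Expected counts were rounded to whole numbers, filtered with filterByExpr (minimum count 10, minimum total 15) and TMM-scaled. All groups were fitted together with the quasi-likelihood test of edgeR 4.0.16 (R 4.3.3), and two-sided p-values were Benjamini-Hochberg adjusted over all 12212 tested genes (threshold 0.05). The common BCV (spread between replicates) was 4.53%, on 6 residual degrees of freedom. Each SE was obtained from the log2 change and its F statistic. The fit was tested on simulated data. Levels per kilobase use GENCODE M21 exon lengths, and positions and promoters come from RefSeq for GRCm38.p6. Apart from Arnt and Hif1an, other pathway genes were chosen from the up to 3 with the smallest p in each direction, list and comparison. Not all of those are given. The members and lists were chosen with earlier results of these data known. Alternatives were other scalings, no filter, limma voom 3.58.1, DESeq2 1.42.0, a fit of 2 groups, a replicate block and each library left out.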

Additional observations from a re-analysis of the deposited data

How the results depend on the processing

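Of 1632 results for single members under 17 alternatives, 1562 kept their direction and their side of the threshold, and 71 of the 96 changes did so under every one. The counts of members ranged from 11 to 17 lower in TGFb against Ctrl (4 higher throughout), from 17 to 21 lower and 3 to 4 higher in SIS3_TGFb against TGFb, and from 23 to 24 lower (3 higher throughout) in SIS3_TGFb against Ctrl. Over the same fits, 12.1% to 21.0% of all genes fell in TGFb against Ctrl and 12.3% to 21.9% in SIS3_TGFb against TGFb. In SIS3_TGFb against Ctrl, 18.3% to 28.5% fell. The shares of all genes that rose were 12.8% to 18.1%, 15.2% to 30.2% and 20.8% to 34.6%, in that order. The signs that turned belong to changes that had not passed. In TGFb against Ctrl, upper-quartile factors gave -0.0101 for Gpi1, -0.0161 for Aldoc and -0.00349 for Gapdh. In SIS3_TGFb against TGFb, Slc16a1 was -0.00841 with the size factors of DESeq2 and -0.00844 in DESeq2 itself, and with no scaling factors Pdk1 was 0.0675 and P4ha1 0.0177. In SIS3_TGFb against Ctrl, Slc2a1 was 0.00715 and Pgm1 0.0201 with no scaling factors, and Pfkfb4 was -0.000521 under upper-quartile factors. With each library left out in turn, the log2 change in TGFb against Ctrl ranged from -0.00915 to 0.059 for Aldoc, from -0.218 to 0.018 for Ldhb and from -0.106 to 0.0207 for Bnip3. In SIS3_TGFb against TGFb it ranged from -0.0371 to 0.0298 for Slc16a1, from -0.0315 to 0.187 for Hk2 and from -0.037 to 0.00881 for Pdk1, and in SIS3_TGFb against Ctrl from -0.0197 to 0.0983 for Pfkfb4. The log2 ratio Hk2/Hk1 ranged from -0.115 to 0.111 in SIS3_TGFb against Ctrl, and Ldhb/Ldha from -0.0173 to 0.209 in TGFb against Ctrl and from -0.0295 to 0.192 in SIS3_TGFb against TGFb. Ldhb is limited by depth, at 35 counts in its lowest library.

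With the replicate number as a replicate block, 4 members were higher and 14 lower in TGFb against Ctrl, 3 and 21 in SIS3_TGFb against TGFb, and 3 and 24 in SIS3_TGFb against Ctrl, so no member count moved. Of all genes tested in that fit, 17.0% rose and 15.3% fell in TGFb against Ctrl. The shares were 19.8% and 19.5% in SIS3_TGFb against TGFb, and 28.0% and 24.0% in SIS3_TGFb against Ctrl. Deviations of same-numbered libraries correlated at -0.147 to 0.126, and those of differently numbered libraries at -0.163 to 0.145. The labels do not state whether samples with the same number are paired. With 3 libraries per group these correlations cannot decide it.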
